A study of Homo sapiens with 8 samples.

Results

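A set of 9 genes was taken by name. NSD2, FGFR3, LETM1, TACC3, MAF, CCND1, CCND2, CCND3 and MYC are genes at or beside the breakpoints of recurrent translocations of multiple myeloma (MM), or D cyclins, whose expression these translocations raise. They were matched by GENCODE symbol to the deposited Ensembl identifiers, and all 9 were found among the 58219 genes listed. All 9 were also among the 13129 protein-coding genes with enough counts to be tested. Expression was measured by RNA-seq in 2 established cell lines of MM, H929 and KMS11, each positive for t(4;14). Cells were exposed for 24 h to 2 µM fluvastatin, an inhibitor of HMG-CoA reductase, or to ethanol, the solvent control. The 4 groups were H929 in ethanol, H929 in fluvastatin, KMS11 in ethanol and KMS11 in fluvastatin, each with 2 biological replicates, which gave 8 libraries. Each genotype is represented by a single established line, so a difference between H929 and KMS11 is a difference between these lines. No t(4;14)-negative line, other dose or other time was part of these libraries.

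In MM, translocations into the immunoglobulin heavy chain locus place a gene of the partner chromosome next to enhancers that are strongly active in plasma cells. In t(4;14) the break falls within or just before NSD2, which encodes the histone H3 lysine 36 methyltransferase also called MMSET, and FGFR3, a receptor tyrosine kinase for fibroblast growth factors, can be placed under the heavy chain enhancer on the other derivative chromosome. LETM1, a protein of the inner mitochondrial membrane, and TACC3, a protein of the mitotic spindle, are encoded beside them on the short arm of chromosome 4. MAF, a basic leucine zipper transcription factor, is the target of t(14;16), a translocation that KMS11 is also known to carry. D cyclins activate CDK4 and CDK6, which phosphorylate the retinoblastoma protein at the start of the cell cycle. CCND2 is a known transcriptional target of MAF, and MM tumours nearly always express a D cyclin at a raised level. MYC, a transcription factor for growth and ribosome production, is often rearranged as the disease progresses.

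The promoters of NSD2, FGFR3 and MAF are shown because these are the native start regions of the genes that t(4;14) and t(14;16) bring under the heavy chain enhancers. Each window is the 250 bases before a gene start in RefSeq on GRCh38.p14, written 5′ to 3′ on the strand of the gene. In the first and the second sequence, capitals mark GC boxes, the letters GGGCGG on either strand. In the third, capitals mark the letters TATAAA on the strand of the gene and TGCTGA on either strand, the half-site of the Maf recognition element.
FGFR3, chr4:1793043-1793292, plus strand: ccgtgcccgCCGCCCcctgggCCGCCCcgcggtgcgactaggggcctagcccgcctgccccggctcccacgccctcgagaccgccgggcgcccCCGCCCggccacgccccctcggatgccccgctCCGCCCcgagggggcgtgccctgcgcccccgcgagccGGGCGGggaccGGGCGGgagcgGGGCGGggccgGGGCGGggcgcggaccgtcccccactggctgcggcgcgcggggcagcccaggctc
NSD2, chr4:1871143-1871392, plus strand: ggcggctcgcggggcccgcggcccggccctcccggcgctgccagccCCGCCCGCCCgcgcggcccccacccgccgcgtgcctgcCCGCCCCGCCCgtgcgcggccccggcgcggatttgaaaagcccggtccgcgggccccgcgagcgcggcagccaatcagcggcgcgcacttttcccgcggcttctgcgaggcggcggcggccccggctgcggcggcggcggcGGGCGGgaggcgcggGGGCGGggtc
MAF, chr16:79600738-79600987, minus strand: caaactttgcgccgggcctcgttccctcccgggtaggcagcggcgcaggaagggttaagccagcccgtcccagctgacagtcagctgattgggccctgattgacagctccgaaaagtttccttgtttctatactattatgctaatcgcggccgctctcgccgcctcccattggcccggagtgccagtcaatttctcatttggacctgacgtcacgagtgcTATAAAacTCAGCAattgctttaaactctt
The FGFR3 window held 8 GC boxes and 86.8% G and C, and the NSD2 window held 6 GC boxes and 86.0% G and C. Over 35116 RefSeq promoters of this length, 42.6% held at least 1 GC box and the median content of G and C was 58.0%. The MAF window held 54.4% G and C, no GC box, 1 TATAAA and 1 TGCTGA, which 6.80% and 14.0% of all promoters held. The windows of TACC3 and of the 3 RefSeq starts of CCND3 held no TATAAA, and 1 of the CCND3 windows held a TGCTGA. These matches describe the letters and do not show that a factor was bound.

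On GRCh38, NSD2 (ENSG00000109685.17) spans chr4:1871393-1982207 on the plus strand. FGFR3 (ENSG00000068078.17) spans chr4:1793293-1808872 on the plus strand, LETM1 (ENSG00000168924.14) chr4:1811479-1856156 on the minus strand and TACC3 (ENSG00000013810.18) chr4:1712858-1745171 on the plus strand. MAF (ENSG00000178573.6) spans chr16:79585843-79600737 on the minus strand. CCND1 (ENSG00000110092.3) lies at chr11:69641156-69654474, CCND2 (ENSG00000118971.7) at chr12:4269771-4305353 and CCND3 (ENSG00000112576.12) at chr6:41934934-42050357. MYC (ENSG00000136997.16) lies on chromosome 8.

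Total counts per library ranged from 26702515 to 41910446. All 9 plasma cell markers exceeded 3 counts in every group, with a summed level of 8181 to 8442 CPM (counts normalized to library size with TMM factors, over the genes tested) in H929 in ethanol, 6865 to 7075 CPM in H929 in fluvastatin, 2722 to 2983 CPM in KMS11 in ethanol and 2398 to 2474 CPM in KMS11 in fluvastatin. CD38 was at 165 to 185 CPM in H929 and 0.104 to 0.301 CPM in KMS11, whereas the epithelial marker EPCAM was at 60.8 to 68.7 CPM in KMS11 and at most 1 count in H929. COL1A1, COL1A2, COL3A1, CD14, CSF1R, CD3D and CD2 were at or under 3 counts in all groups. The fibroblast marker PDGFRB exceeded 3 counts in all groups, as did the myeloid marker LYZ except in H929 in ethanol, and the myeloid marker ITGAM did in KMS11. The 4 fibroblast markers summed to at most 0.307 CPM. The 4 myeloid markers summed to at most 0.161 CPM in H929, 0.465 to 0.626 CPM in KMS11 in ethanol and 1.12 to 1.19 CPM in KMS11 in fluvastatin. Within H929, 5 of the 9 plasma cell markers fell and 1 rose with fluvastatin, and 2 of the 4 T cell and 1 of the 4 epithelial markers rose. Within KMS11, 1 of the 9 plasma cell markers fell. The 4 epithelial markers summed to 2.04 to 2.21 CPM in H929 in ethanol and 6.63 to 9.95 CPM in H929 in fluvastatin. In KMS11 they summed to 93.7 to 95.7 CPM in ethanol and 96.6 to 103 CPM in fluvastatin. The 4 T cell markers summed to 4.36 to 4.52 CPM in H929 in ethanol and 10.3 to 12.6 CPM in H929 in fluvastatin. In KMS11 they summed to 0.783 to 0.848 CPM in ethanol and 0.469 to 0.679 CPM in fluvastatin. The plasma cell, epithelial and T cell sums moved with the line and, within each line, with treatment. Their part in the results was not tested. The spread between replicates was widest in KMS11 in fluvastatin, with an SD of the log2 ratio between replicates of 0.252 against 0.126 to 0.182 in the other groups. In bulk RNA of this kind, fewer cells that express a gene and less of its RNA per cell cannot be told apart.

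**Figure D1:**
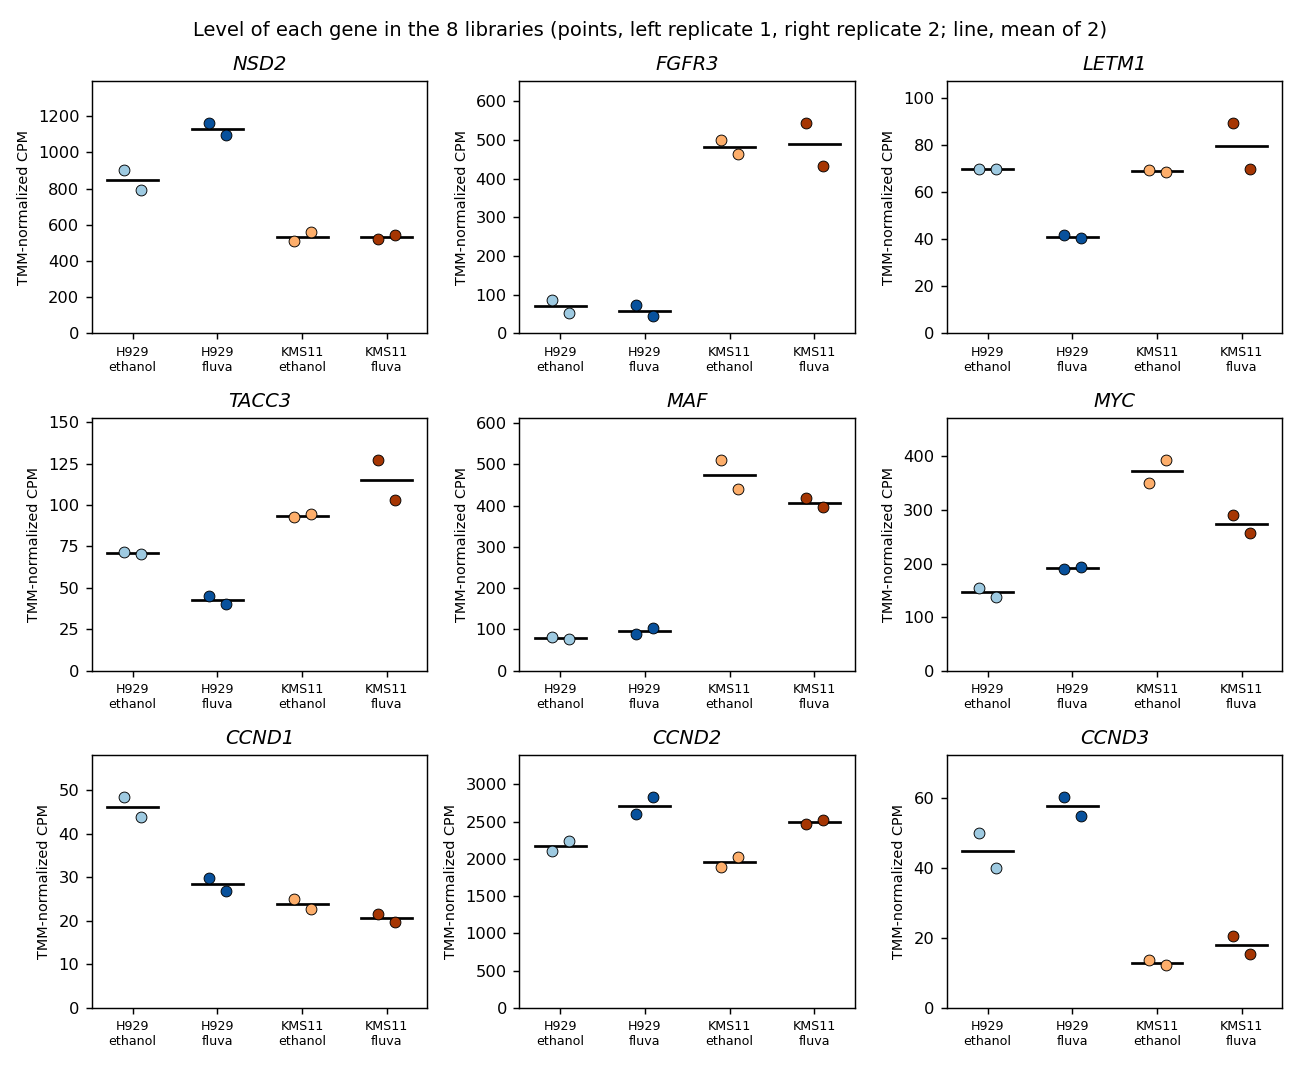
Level of each gene in the 8 libraries, as TMM-normalized CPM on an axis from 0, with points for libraries and a line for the mean of 2. FGFR3, TACC3, MAF and MYC were higher in all 4 KMS11 libraries than in all 4 H929 libraries, and NSD2, CCND1 and CCND3 were lower.

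Levels of different genes were compared in TPM, a relative abundance scaled by transcript length. CCND2 had the highest level of the 9 genes in every group, at 176 and 190 TPM in H929 in ethanol and 217 and 218 TPM in KMS11 in ethanol. In H929 in ethanol it was followed by NSD2 at 112 and 127 TPM and by MYC at 34.1 and 41.1 TPM, and the ranges of these 3 genes did not overlap. TACC3 came next at 16.1 and 16.2 TPM. The ranges of CCND3, FGFR3, CCND1 and LETM1 overlapped in a chain between 6.41 and 13.3 TPM, and MAF was lowest at 6.60 and 6.92 TPM by its mean. In KMS11 in ethanol the order differed, with MYC at 115 and 119 TPM and NSD2 at 112 and 118 TPM overlapping behind CCND2. FGFR3 at 82.2 and 95.2 TPM, MAF at 49.0 and 60.8 TPM and TACC3 at 45.6 and 45.9 TPM followed without overlap. LETM1 at 9.28 and 11.1 TPM stood above CCND3 and CCND1, whose ranges overlapped between 3.59 and 5.32 TPM.

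For each gene, libraries were compared in CPM, and tests were edgeR's quasi-likelihood test, adjusted over all genes tested by the Benjamini-Hochberg method, with a threshold of 0.05. Fold changes are given on the log2 scale with their standard error (SE). Between the untreated lines, 7 of the 9 genes differed, 4 higher and 3 lower in KMS11, where 72.0% of all genes tested differed (35.6% higher and 36.4% lower). Tested by limma on log2(TPM + 0.1), where the median of all genes moves from -0.02 to 0.46, 5 of the 9 were higher and 2 lower, and over all genes 6738 were higher and 2579 lower rather than 4680 and 4774. Within H929, 6 of the 9 genes passed the test with fluvastatin, 3 higher and 3 lower, where 42.0% of all genes did (22.7% and 19.3%). By limma on either TPM scale the 3 lower passed and none of the 3 higher did. Within KMS11, none of the 9 passed, where 3.12% of all genes did. At an unadjusted p under 0.05, 4 of the 9 genes and 21.9% of all genes were past it in KMS11, and DESeq2 called 2 of the 9. Across both lines, with the line as a term, 1 of the 9 passed, as a rise, where 10.4% of all genes did (6.50% higher and 3.93% lower). The response itself differed between the lines for 4 of the 9, more positive in KMS11 for 2 and more negative for 2, where 23.2% of all genes had such a difference (11.7% and 11.5%).

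**Figure D2:**
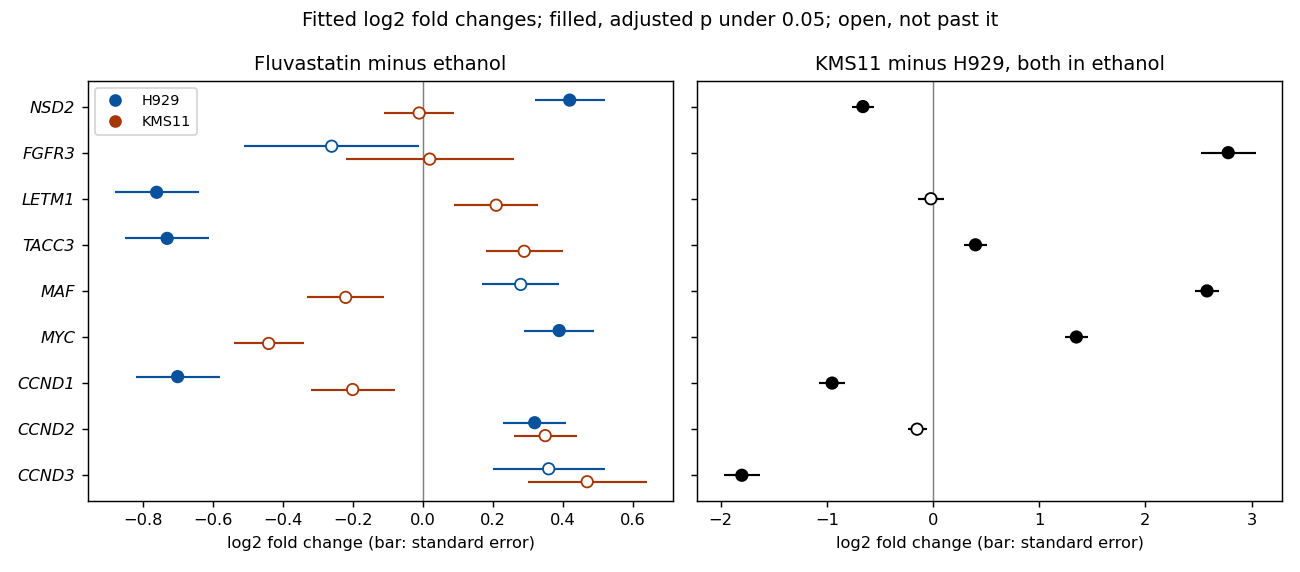
Fitted log2 fold changes with SE for fluvastatin against ethanol in each line (left) and for KMS11 against H929 in ethanol (right). Filled points passed an adjusted p of 0.05, as 6 genes did in H929, none in KMS11 and 7 between the untreated lines.

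NSD2 had the highest TPM of the translocation genes in H929. Its level in H929 was 902 and 792 CPM in ethanol and 1162 and 1096 CPM in fluvastatin, and in KMS11 it was 510 and 560 CPM in ethanol and 524 and 542 CPM in fluvastatin. Both treated H929 libraries were above both untreated ones, whereas the treated KMS11 libraries lay inside the range of the untreated ones. NSD2 rose in H929 by 0.42 ± 0.10 (edgeR adjusted p = 0.0068), a 1.33-fold change, and in KMS11 the value was -0.01 ± 0.10 (adjusted p = 0.99). The difference between these responses, KMS11 minus H929, was -0.42 ± 0.14 and did not pass (edgeR adjusted p = 0.051), though it did with DESeq2 (-0.47, adjusted p = 0.014), median-of-ratios scaling (0.041), no filter (0.045), a stricter filter (0.041) and without the second KMS11 fluvastatin replicate (0.037). Without the second H929 ethanol replicate the rise in H929 was 0.32 and no longer passed (edgeR adjusted p = 0.069). In ethanol NSD2 was 1.58-fold lower in KMS11 (-0.66 ± 0.10, edgeR adjusted p = 1.6e-04). On log2(TPM + 0.1) that value was -0.06, and relative to the shifted median of all genes on this scale NSD2 was at -0.52. The rise in H929 was 0.21 on this scale and did not pass (limma adjusted p = 0.26). In KMS11 NSD2 was at 112 and 118 TPM in ethanol and 83.6 and 107 TPM in fluvastatin, so both treated libraries were lower in TPM.

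The deposited tables also give, for each gene, the mean length of its transcripts weighted by isoform abundance, which moves when the estimated use of isoforms moves. For NSD2 this length was 3518 and 3441 bases in H929 in ethanol and 3989 and 3983 bases in H929 in fluvastatin. In KMS11 it was 3364 and 3241 bases in ethanol and 3800 and 3404 bases in fluvastatin. The treated libraries were above the untreated ones in both lines, by a ratio of mean lengths of 1.15 in H929 and 1.09 in KMS11. The first KMS11 fluvastatin replicate was well above the second, so the size of the shift in KMS11 rests on 1 library. In H929, the treated groups were longer without overlap for 23.3% of the 12119 genes compared, in KMS11 for 18.3%, and in both lines for 3.81%. Besides NSD2, FGFR3 was among the genes that were longer in both lines, from 3931 and 4038 to 4092 and 4090 bases in H929 and from 3844 and 3805 to 3909 and 3861 bases in KMS11. The FGFR3 shifts were small, with ratios of 1.03 and 1.02. With 2 libraries per group these lengths carry no test, and the isoforms behind them were not analysed here.

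**Figure D3:**
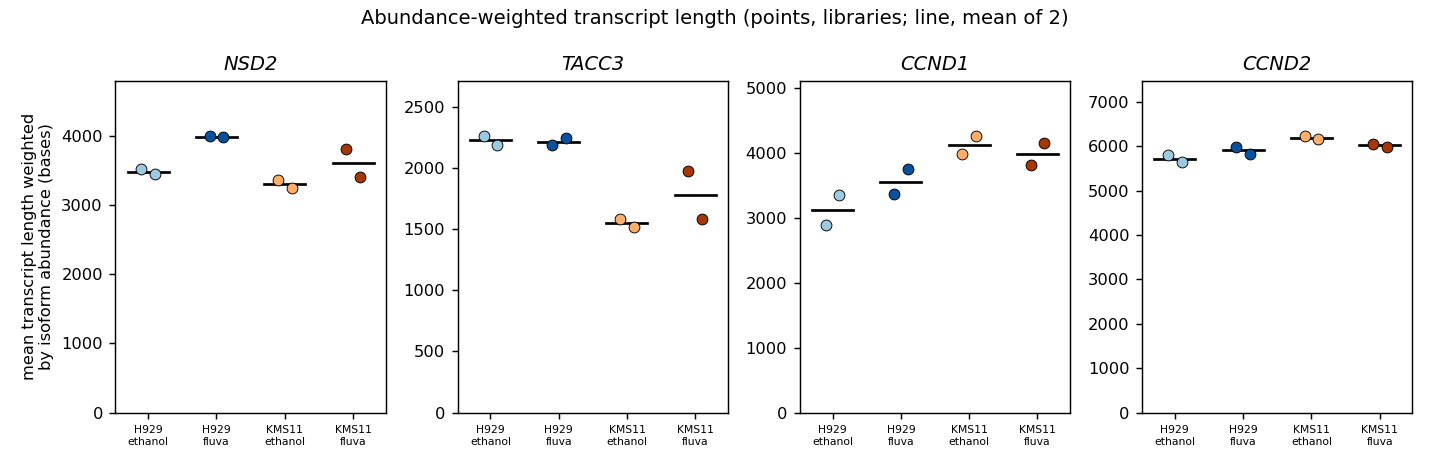
Abundance-weighted transcript length of 4 genes in the 8 libraries, in bases on an axis from 0, with a line for the mean of 2. NSD2 was longer in the fluvastatin libraries of both lines, and TACC3 was shorter in the KMS11 libraries than in the H929 libraries.

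Of 19 tested genes that write, erase or read methylation of histone H3 lysine 36 and 27, 5 rose and 4 fell within H929, against 22.7% and 19.3% of all genes. Their median log2 change was 0.02, as over all genes tested. DNMT3B, a DNA methyltransferase that reads H3K36 methylation, fell from 60.9 and 62.9 to 16.6 and 14.3 CPM in H929 (-2.00 ± 0.14). KDM2B, an H3K36 demethylase, fell by 0.75, and KDM4A, a demethylase of H3K9 and H3K36, rose by 0.75. The count of rises was 3 without either H929 ethanol replicate, the first H929 fluvastatin replicate or either KMS11 ethanol replicate. In KMS11 only PHF19, a Polycomb accessory protein that binds H3K36 methylation, passed, from 98.4 and 122 to 328 and 313 CPM (1.54 ± 0.11, edgeR adjusted p = 1.2e-04), and without the second KMS11 fluvastatin replicate 2 genes rose. In ethanol 8 of the 19 were higher and 5 lower in KMS11, against 35.6% and 36.4% of all genes. These were 14 and 2 on log2(TPM + 0.1), and without the first KMS11 ethanol replicate 3 were lower. DNMT3A was higher (1.37 ± 0.23), whereas the H3K27 demethylase KDM6B (-2.38 ± 0.49, at most 2.25 CPM) and the demethylase KDM4B (-1.77 ± 0.19) were lower.

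FGFR3 separated the lines. It was at 85.9 and 53.7 CPM in H929 in ethanol, 72.6 and 44.3 CPM in H929 in fluvastatin, 501 and 463 CPM in KMS11 in ethanol and 544 and 434 CPM in KMS11 in fluvastatin. Every KMS11 library was above every H929 library, and within each line the treated and untreated libraries overlapped. In ethanol FGFR3 was 6.89-fold higher in KMS11 (2.78 ± 0.26, edgeR adjusted p = 6.4e-06). The fluvastatin values were -0.26 ± 0.25 in H929 (edgeR adjusted p = 0.43) and 0.02 ± 0.24 in KMS11 (adjusted p = 0.98). The value in H929 turned to 0.12 without the first ethanol replicate and to 0.06 without the second fluvastatin replicate. In TPM, the ratio of NSD2 to FGFR3 RNA was 11.8 to 25.5 in the H929 libraries and 0.993 to 1.43 in the KMS11 libraries.

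Among 24 tested genes of FGF receptor signalling, 8 were higher and 11 lower in KMS11 than in H929 in ethanol. Over all genes 35.6% were higher and 36.4% lower. On log2(TPM + 0.1) 11 of the 24 were higher and 7 lower. DUSP6 and DUSP5, phosphatases that inactivate ERK, were among those lower. DUSP6 was at 182 and 152 CPM in H929 and 11.1 and 11.3 CPM in KMS11 (-3.90 ± 0.12), and DUSP5 at 812 and 729 CPM in H929 and 74.8 and 66.3 CPM in KMS11 (-3.45 ± 0.12). FGFR2, a second receptor of the family, was higher in KMS11, at 43.6 and 39.8 CPM against 3.20 and 3.56 CPM (3.63 ± 0.23). With fluvastatin in H929, 5 of the 24 rose and 5 fell, with a median of -0.03, where 22.7% and 19.3% of all genes did. The ETS factor ETV4 (-2.07 ± 0.32) and FGFR2 (-1.52 ± 0.30) fell, and SOS2, an exchange factor for RAS, rose (1.34 ± 0.10). In KMS11 edgeR called none of the 24, where it called 3.12% of all genes. At an unadjusted p under 0.05 were 6 of the 24, against 21.9% of all genes. DESeq2 called 0 of the 24, and their median was 0.08. Without the second KMS11 fluvastatin replicate edgeR called 1 fall.

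LETM1 and TACC3, the chromosome 4 neighbours, were lower with fluvastatin in H929 while NSD2 was higher. LETM1 was at 69.8 and 70.1 CPM in H929 in ethanol and 42.0 and 40.5 CPM in H929 in fluvastatin, and at 69.4 and 68.8 CPM in KMS11 in ethanol and 89.5 and 70.0 CPM in KMS11 in fluvastatin. Replicates were nearly equal except in the treated KMS11 pair, and the treated H929 libraries were below all others. It fell in H929 by 0.76 on the log2 scale (SE 0.12, edgeR adjusted p = 7.5e-04), and the value in KMS11 was 0.21 ± 0.12 (adjusted p = 0.32). The difference of the responses was 0.97 ± 0.17 (edgeR adjusted p = 0.0036). Between the untreated lines LETM1 did not pass (-0.02 ± 0.12, adjusted p = 0.9), with a value of 0.45 (adjusted p = 3.0e-04) once each library's trend with GC content was removed.

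TACC3 was at 71.8 and 70.1 CPM in H929 in ethanol and 45.3 and 40.1 CPM in H929 in fluvastatin. In KMS11 it was at 92.7 and 94.5 CPM in ethanol and 127 and 103 CPM in fluvastatin. The treated libraries were the lowest of H929 and the highest of KMS11. It fell in H929 by 0.73 on the log2 scale (SE 0.12, edgeR adjusted p = 8.3e-04), the value in KMS11 was 0.29 ± 0.11 (adjusted p = 0.18), and the difference of the responses was 1.03 ± 0.16 (adjusted p = 0.0025). In ethanol TACC3 was 1.32-fold higher in KMS11 (0.40 ± 0.11, edgeR adjusted p = 0.0097). Its weighted transcript length was shorter in KMS11, at 1586 and 1517 bases against 2259 and 2191 bases in H929 in ethanol, a ratio of 0.697 where 23.8% of genes were shorter without overlap. TACC3 overlaps TMEM129 on the opposite strand, which was listed at 15.1 to 36.6 CPM. The libraries were stranded, but the strand setting of the counting is not given in the sources used here, so reads of this pair may be shared.

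**Figure D4:**
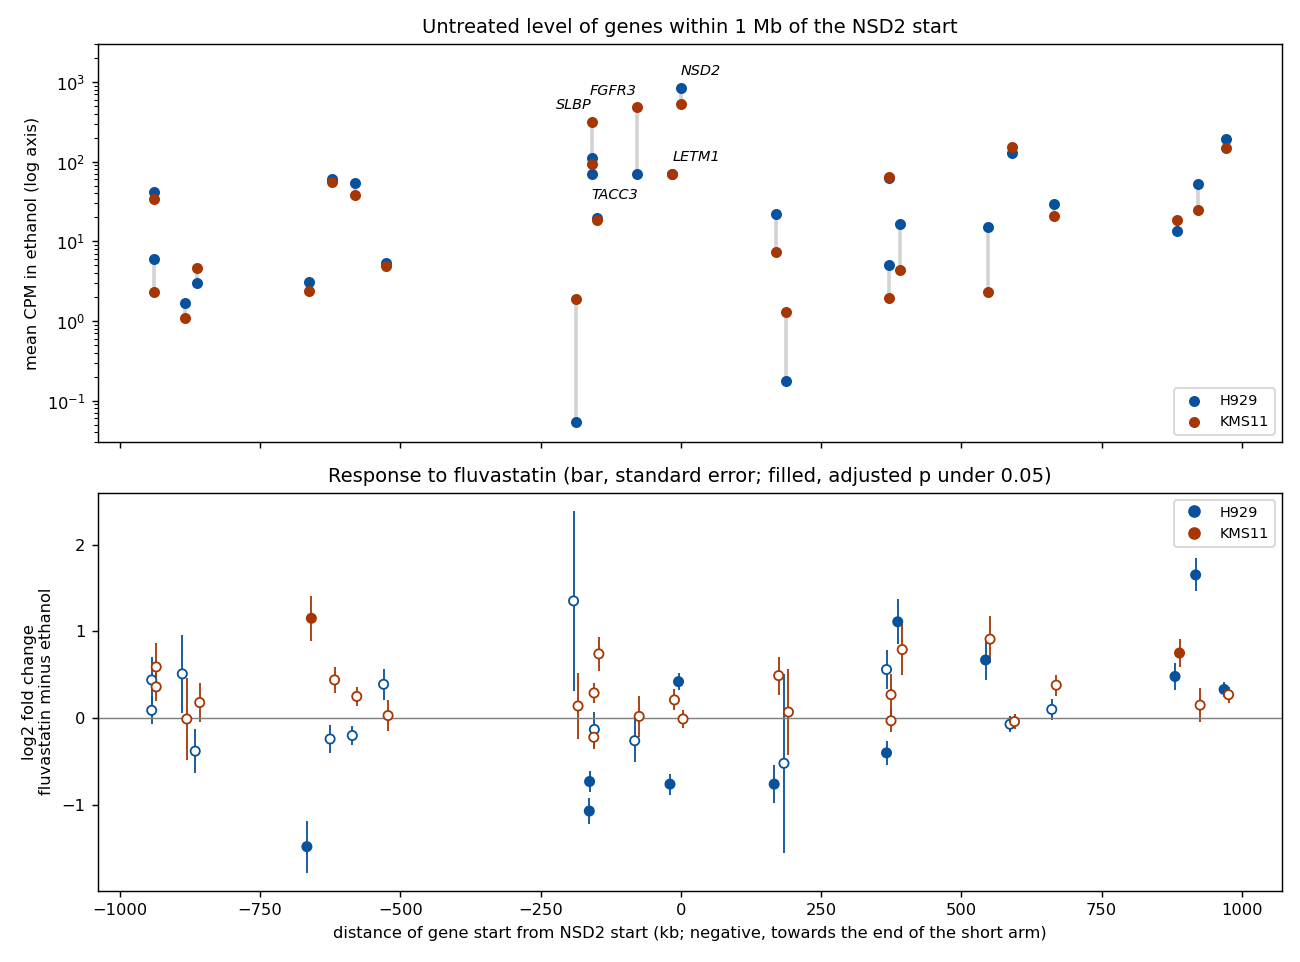
Genes within 1 Mb of the NSD2 start by distance in kb, drawn where the ethanol mean of either line was at least 1 CPM. Top, mean CPM of each line in ethanol on a log axis. Bottom, log2 response to fluvastatin with SE in each line, filled where an adjusted p of 0.05 was passed. Among the genes that stand higher in KMS11 are FGFR3, SLBP, FAM53A and NAT8L. Among those below 0 in H929 and filled are LETM1, TACC3, SLBP and SPON2.

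The annotation places 34 protein-coding genes within 1 Mb of the NSD2 start, of which 32 were listed and 28 tested, 24 besides NSD2, FGFR3, LETM1 and TACC3. In ethanol, 6 of the 24 were higher and 10 lower in KMS11, against 35.6% and 36.4% of all genes. Their median log2 difference was -0.37 against -0.02 over all genes. On log2(TPM + 0.1) 10 of the 24 were higher and 5 lower. SLBP and NELFA were named after their values were seen. SLBP, the histone mRNA stem-loop binding protein that starts beside TACC3 on the other strand, was at 101 and 124 CPM in H929 and 295 and 332 CPM in KMS11 (1.49 ± 0.15). FAM53A was at most 2 counts in H929 in ethanol and 1.93 and 1.89 CPM in KMS11, and the acetyltransferase gene NAT8L was at 0.272 and 0.0800 CPM against 1.44 and 1.18 CPM. IDUA, a lysosomal iduronidase, had at most 19 counts in H929 and 0 in both KMS11 ethanol libraries. Without the second KMS11 ethanol replicate, 3 rather than 6 of the 24 were higher in KMS11.

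With fluvastatin, 5 of the 24 rose and 4 fell in H929, against 22.7% and 19.3% of all genes. SLBP fell from 101 and 124 to 48.0 and 58.8 CPM (-1.07 ± 0.15, edgeR adjusted p = 3.8e-04), in the same direction as TACC3, and NELFA, a subunit of the negative elongation factor just beyond NSD2, fell by 0.76 on the log2 scale. SH3BP2, a signalling adaptor, rose from 62.7 and 42.3 to 188 and 142 CPM (1.65 ± 0.19), and the MAX partner MXD4 rose (1.11 ± 0.26). The matrix protein gene SPON2 fell in H929 (-1.48 ± 0.30) and rose in KMS11 (1.15 ± 0.26), and TNIP2, an inhibitor of NF-kappaB signalling, was the other gene that rose in KMS11 (0.75 ± 0.16). The count of rises in H929 fell to between 1 and 3 without any single library other than the KMS11 fluvastatin ones. In KMS11 the 2 rises became 8 without the second fluvastatin replicate, 1 without either H929 ethanol replicate, and 0 without either KMS11 ethanol replicate or the first fluvastatin replicate.

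MAF also separated the lines. It was at 82.0 and 77.3 CPM in H929 in ethanol, 89.3 and 104 CPM in H929 in fluvastatin, 510 and 440 CPM in KMS11 in ethanol and 419 and 396 CPM in KMS11 in fluvastatin. The treated libraries were above the untreated ones in H929 and below them in KMS11. In ethanol MAF was 5.97-fold higher in KMS11 (2.58 ± 0.11, edgeR adjusted p = 4.4e-08). The fluvastatin values were 0.28 ± 0.11 in H929 (edgeR adjusted p = 0.065) and -0.22 ± 0.11 in KMS11 (adjusted p = 0.25), neither past the threshold. Their difference passed, at -0.50 ± 0.15 (edgeR adjusted p = 0.041). That call was lost without any single library except the first H929 fluvastatin and the first KMS11 fluvastatin replicate, with values of -0.60 to -0.39 and adjusted p from 0.056 to 0.2. H929 libraries held MAF RNA at 6.60 to 8.66 TPM, so it was detected there as well.

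The MAF family and genes reported as MAF targets in MM gave 13 tested genes. In ethanol 3 of the 13 were higher and 5 lower in KMS11 than in H929, with a median of -0.75. Over all genes 35.6% were higher and 36.4% lower. On log2(TPM + 0.1) 6 of the 13 were higher and 5 lower. By the naming rule CXCR3, MAFF and CX3CR1 are given, and the other 5 that differed were added after their values were seen, so that all 8 are named. ITGB7, the integrin beta 7 subunit, was at 5219 and 3727 CPM in H929 and 1109 and 1389 CPM in KMS11 (-1.84 ± 0.18), and the chemokine receptor CCR1 was at 185 and 189 CPM against 41.9 and 43.4 CPM (-2.13 ± 0.11). The chemokine receptor CXCR3 (-5.01 ± 0.26), the small Maf protein MAFF (-2.26 ± 0.34) and the kinase NUAK1 (-0.95 ± 0.15) were lower too. CX3CR1 (3.25 ± 0.49, at most 1.59 CPM), the small Maf protein MAFG (1.33 ± 0.15) and the receptor NOTCH2 (1.22 ± 0.12) were higher. With fluvastatin in H929, 3 of the 13 rose and 3 fell, against 22.7% and 19.3% of all genes. NUAK1 (-1.48 ± 0.15) and CCR1 (-1.02 ± 0.11) fell, NUAK1 from 24.5 and 22.7 to 7.42 and 9.46 CPM and CCR1 from 185 and 189 to 84.5 and 99.6 CPM. In KMS11 MAFF rose (1.58 ± 0.34, edgeR adjusted p = 0.04), a call lost without either KMS11 ethanol replicate or the first fluvastatin replicate. Without the second fluvastatin replicate the list had 2 rises.

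CCND2 made up most D cyclin RNA in both lines. It was at 2103 and 2242 CPM in H929 in ethanol, 2599 and 2826 CPM in H929 in fluvastatin, 1886 and 2025 CPM in KMS11 in ethanol and 2470 and 2519 CPM in KMS11 in fluvastatin. Treated libraries were above untreated ones in both lines. It was the 1 gene of the 9 that passed across both lines, at 0.34 ± 0.07 (edgeR adjusted p = 0.024), a 1.26-fold rise. Within H929 it rose by 0.32 ± 0.09 (edgeR adjusted p = 0.016), within KMS11 the value was 0.35 ± 0.09 (adjusted p = 0.069), and these responses differed by 0.03 ± 0.13 (adjusted p = 0.9). The KMS11 value passed with DESeq2 (adjusted p = 0.036) and, by edgeR, with library size scaling (0.044), no filter (0.032), a replicate block (0.0096) and GC trends removed (0.0053). It did not pass with median-of-ratios scaling, a stricter filter, all annotated genes, limma on TPM or KMS11 alone. The call across both lines was lost without any single library other than the first KMS11 fluvastatin replicate, with values of 0.28 to 0.36 and adjusted p from 0.053 to 0.077. The call within H929 was lost without the first H929 ethanol replicate (0.27), the second H929 fluvastatin replicate (0.26) or either KMS11 ethanol replicate (0.28 each). In ethanol CCND2 did not differ past the threshold between the lines (-0.15 ± 0.09, edgeR adjusted p = 0.15).

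CCND1 was at 48.4 and 43.8 CPM in H929 in ethanol and 29.9 and 26.9 CPM in H929 in fluvastatin, and at 25.1 and 22.7 CPM in KMS11 in ethanol and 21.6 and 19.8 CPM in KMS11 in fluvastatin. Treated libraries were below untreated ones in both lines. It fell in H929 by 0.70 on the log2 scale (SE 0.12, edgeR adjusted p = 0.0013), and the value in KMS11 was -0.20 ± 0.12 (adjusted p = 0.35), with a difference of 0.49 ± 0.17 that did not pass (adjusted p = 0.063). Across both lines CCND1 was at -0.45 ± 0.13 and did not pass (edgeR adjusted p = 0.054). It passed there with DESeq2 (-0.47, adjusted p = 0.0069) and, by edgeR, with median-of-ratios scaling (-0.47, 0.042), no filter (-0.46) and GC trends removed (-0.52, 0.023). It did not pass with library size scaling, a stricter filter, all annotated genes, a replicate block or limma on TPM. In ethanol it was 1.93-fold lower in KMS11 (-0.95 ± 0.12, edgeR adjusted p = 5.8e-05), and its weighted length was greater there, at 3975 and 4251 against 2887 and 3346 bases, where 31.4% of genes were longer without overlap. CCND1 overlaps LTO1 on the opposite strand, listed at 6.58 to 12.0 CPM, so reads of this pair may be shared too.

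CCND3 was at 49.8 and 39.9 CPM in H929 in ethanol and 60.1 and 54.9 CPM in H929 in fluvastatin, and at 13.5 and 12.2 CPM in KMS11 in ethanol and 20.5 and 15.3 CPM in KMS11 in fluvastatin. The treated libraries were above the untreated ones in each line, but the replicates were wide apart. Neither value passed, at 0.36 ± 0.16 in H929 (edgeR adjusted p = 0.097) and 0.47 ± 0.17 in KMS11 (adjusted p = 0.15). With GC trends removed the H929 value passed (0.36, edgeR adjusted p = 0.0051). With a replicate block both passed (0.37 in H929, adjusted p = 0.022, and 0.46 in KMS11, 0.036). Apart from fits that left out a library, no other alternative called either. In ethanol CCND3 was 3.48-fold lower in KMS11 (-1.80 ± 0.17, edgeR adjusted p = 6.2e-06). Across both lines its value was 0.41 ± 0.13 and did not pass (edgeR adjusted p = 0.066). It passed there with DESeq2 (0.40, adjusted p = 0.025) and with GC trends removed (0.32, edgeR adjusted p = 0.026), and with no other alternative.

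**Figure D5:**
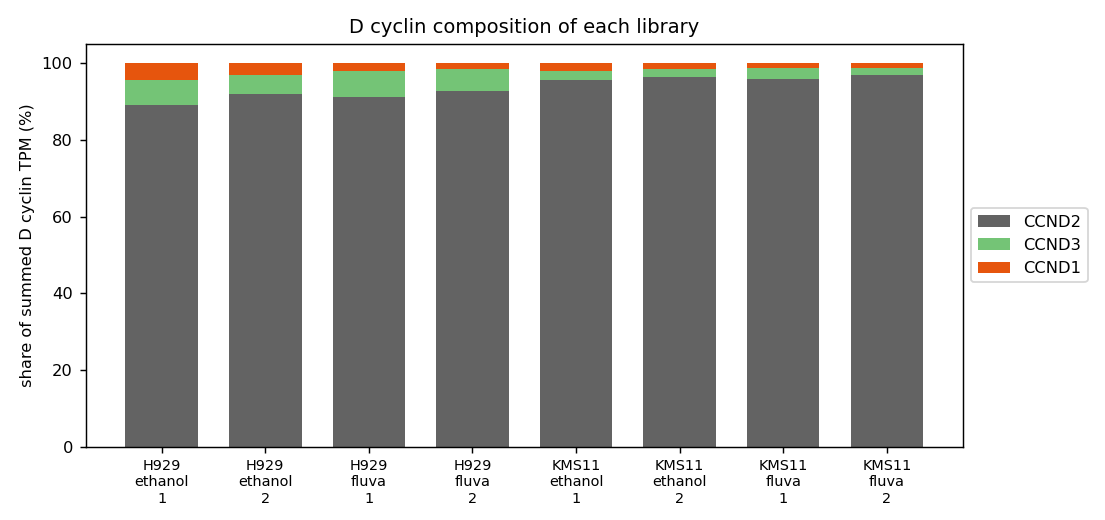
Share of each D cyclin in the summed TPM of CCND1, CCND2 and CCND3 in percent, by library. CCND2 held 89.0 to 92.7% in the H929 libraries and 95.6 to 96.9% in the KMS11 libraries.

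By summed TPM, CCND2 held 89.0 and 92.0% of D cyclin RNA in H929 in ethanol and 91.1 and 92.7% in H929 in fluvastatin. In KMS11 it held 95.6 and 96.4% in ethanol and 95.9 and 96.9% in fluvastatin. All 4 KMS11 libraries were above all 4 H929 libraries. The share of CCND1 was 4.25 and 3.10% in H929 in ethanol and 1.92 and 1.40% in H929 in fluvastatin. The share of CCND3 was between 4.87 and 6.94% in H929 and between 1.93 and 2.71% in KMS11.

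Of 24 genes for partners, inhibitors and targets of D cyclins, 7 rose and 9 fell with fluvastatin in H929. Over all genes 22.7% rose and 19.3% fell. CDK2, the kinase of cyclins E and A, fell from 50.3 and 48.5 to 19.1 and 15.9 CPM (-1.50 ± 0.11), and E2F1, a transcription factor held by the retinoblastoma protein, fell from 81.8 and 73.9 to 27.2 and 28.1 CPM (-1.49 ± 0.12). The inhibitor CDKN1C rose (1.53 ± 0.47), though at no more than 0.615 CPM. CDK4 and CDK6, the direct catalytic partners of the D cyclins, were named after their values were seen. CDK4 was among the 9 that fell, from 148 and 147 to 79.8 and 82.9 CPM (-0.86 ± 0.09). CDK6, at 1527 and 1585 CPM in ethanol and 1354 and 1540 CPM in fluvastatin, did not pass.

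In KMS11, 3 of the 24 rose with fluvastatin and none fell by edgeR, with 1 fall at an unadjusted p under 0.05 and 0 by DESeq2. Over all genes 2.58% rose and 0.533% fell by edgeR. The inhibitor of cyclin-dependent kinases CDKN1A rose from 2.56 and 3.17 to 12.0 and 14.6 CPM (2.22 ± 0.19, edgeR adjusted p = 2.7e-04), the CDK4 and CDK6 inhibitor CDKN2B from 21.1 and 15.9 to 46.5 and 45.2 CPM (1.31 ± 0.18) and E2F2 from 160 and 178 to 284 and 259 CPM (0.68 ± 0.10). The count of rises was 1 without the second KMS11 ethanol replicate and 5 without the second KMS11 fluvastatin replicate, which also gave 1 fall. In ethanol 9 of the 24 were higher and 5 lower in KMS11, against 35.6% and 36.4% of all genes. On log2(TPM + 0.1) 17 of the 24 were higher and 4 lower. CDKN1A was at 257 and 209 CPM in H929 against those 2.56 and 3.17 CPM in KMS11 (-6.34 ± 0.20), while CCNE2, a cyclin E, was at 23.4 and 31.3 CPM in H929 and 231 and 259 CPM in KMS11 (3.16 ± 0.18). CDKN1C was also higher in KMS11 (3.26 ± 0.39), at 1.70 and 2.24 CPM. Responses of 14 of the 24 differed by line, 11 more positive and 3 more negative in KMS11, where 11.7% and 11.5% of all genes did. On log2(TPM + 0.1) these counts of the 24 were 5 and 3. Without the first KMS11 ethanol replicate 5 were more positive.

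MYC responded differently in the 2 lines. It was at 155 and 137 CPM in H929 in ethanol, 189 and 194 CPM in H929 in fluvastatin, 351 and 393 CPM in KMS11 in ethanol and 291 and 257 CPM in KMS11 in fluvastatin. Treated libraries were above untreated ones in H929 and below them in KMS11, and all KMS11 libraries were above all H929 libraries. MYC rose in H929 by 0.39 ± 0.10 (edgeR adjusted p = 0.014), a 1.31-fold change. The value in KMS11 was -0.44 ± 0.10 and did not pass (edgeR adjusted p = 0.054). It passed with DESeq2 (-0.48, adjusted p = 0.0014) and limma on log2(TPM + 1) (-0.54, 0.049). By edgeR it passed with median-of-ratios scaling (adjusted p = 0.037), no filter (0.014), a replicate block (0.02) and GC trends removed (0.0043). It did not pass with library size scaling, a stricter filter, all annotated genes, limma on log2(TPM + 0.1) or KMS11 alone. The difference of the responses was -0.83 ± 0.15 (edgeR adjusted p = 0.0043). The rise in H929 was 0.31 (adjusted p = 0.11) without the second ethanol replicate and 0.37 (adjusted p = 0.068) without the second fluvastatin replicate, whereas the difference of the responses passed without any single library. In ethanol MYC was 2.55-fold higher in KMS11 (1.35 ± 0.11, edgeR adjusted p = 2.0e-06).

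The proteins that share MYC's partner MAX, or turn MYC over, form a network of which 15 genes were tested. In H929 5 rose and 1 fell with fluvastatin, against 22.7% and 19.3% of all genes. MXD1, a MAX partner that represses MYC targets, rose from 11.9 and 12.0 to 29.5 and 30.5 CPM (1.33 ± 0.13), MXD4, a repressor of the same family, rose by 1.11 ± 0.26, and USP28, a deubiquitinase of MYC, rose by 0.95 ± 0.10. In KMS11, where 3.12% of all genes passed, MXD1 alone did, from 19.3 and 17.7 to 25.0 and 28.3 CPM (0.53 ± 0.12, edgeR adjusted p = 0.049). That call was lost without any single ethanol library of either line, and without the second KMS11 fluvastatin replicate the network had 2 rises. The single fall in H929 was lost without the first replicate of either H929 group, and became 2 without either KMS11 fluvastatin replicate. Between the untreated lines 6 were higher and 6 lower in KMS11, against 35.6% and 36.4% of all genes. On log2(TPM + 0.1) 9 of the 15 were higher and 5 lower. The repressors MXD3 (-3.26 ± 0.33), MNT (-2.01 ± 0.20) and MXD4 (-1.93 ± 0.28) were the lowest by edgeR.

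Of 28 genes known as MYC targets, 25 fell and none rose with fluvastatin in H929 by edgeR, the line in which MYC rose. Their median was -0.83 against 0.02 over all genes, of which 19.3% fell. The list was chosen with earlier results of these data known, and CDK4 is also in the D cyclin list. Whether MYC had a part in these falls was not tested. CDC25A, a phosphatase that activates cyclin-dependent kinases, fell from 88.0 and 98.9 to 13.7 and 16.6 CPM (-2.63 ± 0.12), and SRM, spermidine synthase, from 130 and 123 to 54.8 and 45.2 CPM (-1.34 ± 0.18). TERT, the catalytic subunit of telomerase, fell too (-2.08 ± 0.40), from 2.72 and 1.56 to 0.571 and 0.443 CPM. Counted at an unadjusted p under 0.05, by DESeq2, or without either H929 ethanol replicate or either KMS11 fluvastatin replicate, 1 of the 28 rose.

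In KMS11, where MYC was lower in both treated libraries, 1 of the 28 rose and 1 fell. Over all genes 2.58% rose and 0.533% fell. NCL, the nucleolar protein nucleolin, fell from 1195 and 1180 to 828 and 924 CPM (-0.44 ± 0.10, edgeR adjusted p = 0.049), and TFRC, the transferrin receptor, rose from 938 and 876 to 1280 and 1500 CPM (0.62 ± 0.14, adjusted p = 0.044). At an unadjusted p under 0.05, 1 of the 28 was higher and 15 were lower, against 1794 and 1080 of all 13129 genes. DESeq2 counted 1 rise and 7 falls, removal of GC trends 1 and 10, and the median was -0.26 against 0.00 over all genes. The fall was lost without any single library other than the first H929 fluvastatin and the second KMS11 fluvastatin replicate, and without the latter 11 genes fell and 2 rose. The rise was lost without either KMS11 ethanol replicate. The response was more positive in KMS11 for 15 of the 28 and more negative for none by edgeR, against 11.7% and 11.5% of all genes. At an unadjusted p under 0.05 and by DESeq2 none was more negative either. In ethanol 11 of the 28 were higher and 5 lower in KMS11, against 35.6% and 36.4% of all genes. ODC1, ornithine decarboxylase (1.29 ± 0.11), NME1, a nucleoside diphosphate kinase (1.06 ± 0.10), and TFAM, a mitochondrial transcription factor (0.98 ± 0.12), were the highest. On log2(TPM + 0.1) the counts of higher and lower among the 28 were 21 and 0. Without the first H929 ethanol replicate these counts were 7 and 1, without the second KMS11 ethanol replicate 7 and 3, and without the first KMS11 ethanol replicate 2 were lower.

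The genes whose log2 CPM followed each of the 9 most closely were found over the 8 libraries after the mean of each line was subtracted. The points share their treatments and libraries, so the coefficients are descriptions. NSD2 was followed most closely by WSB2 (Pearson r = 0.991), COPA (0.990) and C10orf105 (0.986), and FGFR3 by RNF207 (0.980), GMPPA (0.970) and ARMCX6 (0.968). For LETM1 these were EPHB2 (0.998), UBL4A (0.996) and COLGALT1 (0.996), and for TACC3 LIG1 (0.997), SAMD1 (0.996) and PPP5C (0.996). MAF was followed by PECR (0.989), PDZK1 (0.985) and GPR137B (0.982), and MYC by SIDT1 (0.985), IQCG (0.982) and NEUROG2 (0.970). Among the D cyclins the closest were RHOV (0.992), MED12L (0.991) and CNPY2 (0.989) for CCND1, VPS26C (0.993), GOLGA1 (0.990) and SPATS2L (0.988) for CCND2, and TADA2B (0.997), FAM234A (0.994) and CASTOR2 (0.993) for CCND3.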

How the data were processed

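RNA from H929 and KMS11 cells in ethanol or 2 µM fluvastatin was depleted of ribosomal RNA and made into stranded libraries. Per the labels, the authors aligned reads with STAR 2.5.2b and estimated expression with RSEM 1.3.0. The authors deposited expected counts (unnormalized), TPM (scaled by effective length over all genes) and transcript lengths weighted by isoform abundance. FPKM was not used. Symbols and positions were taken from GENCODE 44, which is newer than the annotation behind the files.

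Expected counts were rounded, filtered by filterByExpr (minimum count 10, minimum total 15), scaled by TMM and tested in R 4.3.3 with edgeR 4.0.16. The 4 group means gave the within-line, difference and untreated comparisons, and terms for line and treatment gave the comparison across both lines. limma 3.58.1 and DESeq2 1.42.0 served as alternatives. The standard error is the log2 fold change divided by the square root of F. CPM are TMM-scaled over the genes tested. Steps were tested on simulated data. Total counts were 26702515 to 41910446 per library.

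The 9 genes and the gene lists were chosen with earlier results of these data known. From each list, up to 3 genes past the threshold with the largest absolute log2 fold change were named per comparison within a line or between untreated lines, and for each of the 9 genes the 3 with the highest within-line correlation. Genes named outside this rule are said to be. A result that concerns a withheld item is not reported here. Alternatives were DESeq2, median-of-ratios and library size scaling, no or a stricter filter, all annotated genes, each line alone, a replicate block, limma on TPM, removal of GC trends and leaving out each library.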

Additional observations from a re-analysis of the deposited data

Results flagged for a closer look

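The response to fluvastatin differed between H929 and KMS11 for 4 of the 9 genes, by edgeR's test of the difference itself, where 23.2% of all genes tested had such a difference. As KMS11 minus H929 on the log2 scale, the difference was 1.03 for TACC3 and 0.97 for LETM1, both lower with fluvastatin in H929. It was -0.83 for MYC, which was higher with fluvastatin in both H929 libraries and lower in both KMS11 libraries, and -0.50 for MAF. For MAF neither within-line change passed on its own, and the call was lost in 6 of the 8 fits that left out a library, with values of -0.60 to -0.39. The MAF call was also lost by edgeR with all annotated genes (-0.47, adjusted p = 0.056) and GC trends removed (-0.34, 0.052), and by limma on log2(TPM + 1) (-0.56, 0.074) and log2(TPM + 0.1) (-0.59, 0.07). For LETM1 the call was lost by limma on log2(TPM + 1) (0.67, adjusted p = 0.062). The causes were not tested.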

How the results depend on the processing

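Of 828 values of the 9 genes recomputed under 19 alternatives, 697 kept direction and side of the threshold, 42 gained and 37 lost a call, and 52 changed sign, of which 3 involved a call. The causes were not tested. No alternative moved the calls of TACC3, LETM1 and CCND1 within H929.

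The 3 were LETM1 between the untreated lines, -0.02 in the reported fit and 0.44, 0.48 and 0.45 with limma on log2(TPM + 1), limma on log2(TPM + 0.1) and GC trends removed. Both TPM scales moved the median of all genes in that comparison, to 0.31 and 0.46, and gave CCND2 0.25 on each. With limma on TPM (pseudocounts 1 and 0.1), FGFR3 and TACC3 within KMS11 were -0.15 and -0.07 on each, NSD2 across both lines -0.03 on each, MAF across both lines -0.06 and -0.05, and the difference of responses -0.02 on each for CCND2 and -0.09 and -0.07 for CCND3. DESeq2 and median-of-ratios scaling each gave -0.02 for FGFR3 within KMS11 and for the CCND2 difference. Library size scaling gave NSD2 0.02 within KMS11, and all annotated genes gave MAF -0.01 across both lines. With GC trends removed, NSD2, FGFR3 and LETM1 within KMS11 were 0.02, -0.39 and -0.01, MAF across both lines -0.04, and the differences for FGFR3 and CCND3 -0.19 and -0.09.

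Of the 9 genes, those called within H929 numbered 3 with limma on either TPM scale, and those with a difference of responses 2 on log2(TPM + 1). Within KMS11 the count was 2 with DESeq2, no filter or GC trends removed, and 1 with median-of-ratios, library size scaling or limma on log2(TPM + 1). Across both lines it was 3 with DESeq2 or GC trends removed, 2 with median-of-ratios or no filter, and 0 with limma on either TPM scale. Over all genes, calls within KMS11 (409) became 926 with DESeq2, 1098 with no filter, 223 and 158 with limma, and 1507 with GC trends removed. Calls across both lines (1370) became 2538 with DESeq2 and 3075 with GC trends removed, and calls of a difference (3048) became 1969 with limma on log2(TPM + 0.1) and 4658 with GC trends removed.

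Without single libraries, calls ranged from 63 to 2148 within KMS11, 191 to 1697 across both lines and 1309 to 4269 for the difference, and the 9 genes gave 0 to 3 calls within KMS11 and 0 to 2 across both lines. Sign changes occurred in the ranges of FGFR3 (-0.66 to 0.12 within H929, -0.16 to 0.13 within KMS11, -0.24 to 0.06 across both lines, -0.10 to 0.68 for the difference), of MAF and MYC across both lines (-0.07 to 0.09 and -0.15 to 0.06), of NSD2 within KMS11 (-0.10 to 0.03), of CCND2 and CCND3 for the difference (-0.03 to 0.09 and -0.09 to 0.30) and of LETM1 between the untreated lines (-0.02 to 0.00).

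The labels give replicate numbers but no shared batch, and deviations of same-numbered libraries correlated at 0.298 in H929 and 0.034 in KMS11. With a replicate block, calls were 1637 within KMS11 and 158 across both lines, and of the 9 genes 3 were called within KMS11 and 0 across both lines. All 9 were called within H929, where FGFR3 (-0.26 ± 0.09, edgeR adjusted p = 0.031), MAF and CCND3 gained calls, and 6 had a difference of responses, where NSD2 (edgeR adjusted p = 0.012) and CCND1 gained calls.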
